A study of Zea mays with 15 samples.

Results

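In the growing base of maize leaf 4, 18 genes stood higher in 3 particular UV-B libraries than in every other usable library. The 3 libraries were UV-B zone 2 replicates 1 and 2 and UV-B zone 3 replicate 2, called the raised libraries here. The genes were chosen by their levels in CPM (a gene's reads when the whole library is scaled to 1000000). Their lowest CPM in the raised libraries had to be at least 5, and at least 1.5 times the highest CPM in the other 11 libraries. The 11 were all 8 control libraries and the 3 libraries of UV-B replicate 3. Of 39145 genes, 14146 met the level of 5 CPM and 19 met both conditions, of which the rule left 1 out. The levels in the raised libraries therefore chose the genes and are given as a description.

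The plants were of the inbred line B73, a standard maize line, and grew outdoors under filters. UV-B averaged 1.5 W/m2 under the filter of the UV-B plants and 0.35 W/m2 under the control filter. UV-A averaged 8 W/m2 for both sets of plants. Segments of 10 mm were taken from the lowest 30 mm of the leaf, 3 days after it emerged. Zone 1 is the segment at the leaf base, zone 2 the next and zone 3 the one above it. There were 3 control libraries of zone 1, 2 of zone 2 and 3 of zone 3. Under UV-B there was 1 library of zone 1, with 3 of zone 2 and 3 of zone 3. Replicates are numbered within each treatment, so the same replicate number in control and UV-B does not mark a pair. In the sample titles, control replicate 3 and UV-B replicate 1 share a number, and whether it links them is not known here. The experiment was repeated 3 times in a single summer, and the labels do not say which libraries come from which repeat, so a repeat and the raised libraries cannot be told apart. All groups carry the same genotype, and each segment mixes cell types. Fewer cells of a type and less RNA per cell cannot be told apart in such samples.

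Jasmonate is a plant hormone made from membrane lipids when tissue is wounded or attacked. Its receptor complex removes JAZ repressors, which belong to the TIFY family, and so frees transcription factors of the bHLH class such as MYC2. JAZ genes are themselves early targets of the pathway, which closes a feedback loop. Ribosome-inactivating proteins damage the ribosomal RNA of cells they enter and serve in plant defence.

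Depth ranged from 1673416 to 19221143 reads in the 14 usable libraries, and UV-B zone 3 replicate 1 had fewer than 1000 reads. None of them fell on the 18 genes, and a count of 0 there allows a summed share of up to 0.412% of reads. In the raised library with the highest summed level the 18 genes took 913 CPM, so UV-B zone 3 replicate 1 cannot show the genes at either level. UV-B replicate 1 is thus seen in zone 2 alone. UV-B replicates 1 and 2 had no zone 1 library here. The segments carried the marks of their position. In control leaves, 11 of 12 tested genes of dividing cells were lower and 13 of 13 greening genes were higher in zone 3 than in zone 1 at an adjusted p under 0.05 (edgeR's quasi-likelihood test), where 25.7% of all genes tested were lower and 25.6% higher.

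Summed over the 18 genes, the level was 734 CPM in UV-B zone 2 replicate 1, 610 CPM in UV-B zone 2 replicate 2 and 913 CPM in UV-B zone 3 replicate 2. In the 8 control libraries the sum ran from 64.0 to 220 CPM. In UV-B replicate 3 it was 82.2 CPM in zone 1, 73.4 CPM in zone 2 and 80.7 CPM in zone 3. The UV-B replicate 3 libraries, from plants under the same filter as the raised ones, thus lay within the range of all controls. In zone 3 the level was below the 3 control libraries of that zone, which had 106, 220 and 100 CPM. UV-B zone 2 had a mean of 473 CPM ± 351 (SD, n = 3), and control zone 2 had 116 CPM ± 73.7 (SD, n = 2).

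**Figure D1:**
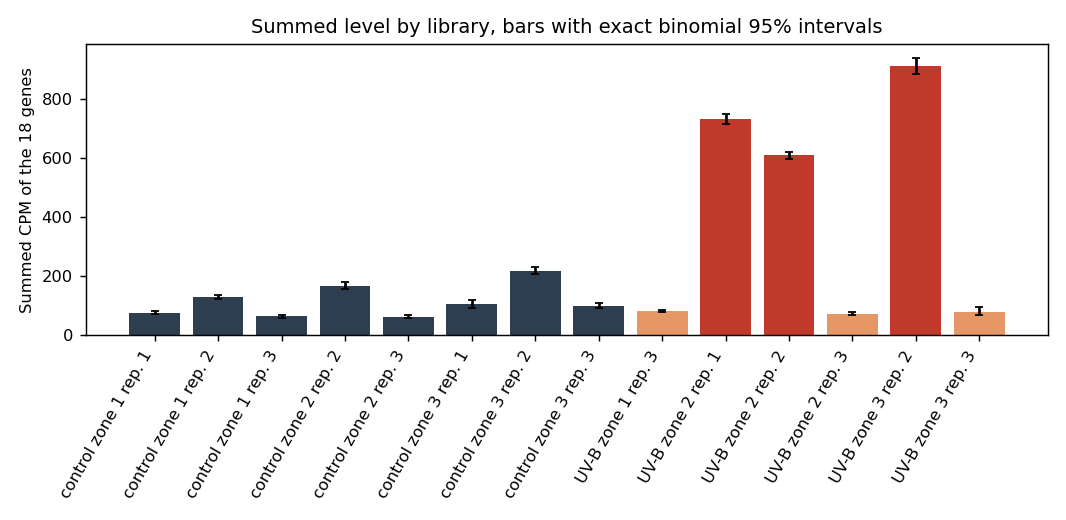
Summed CPM of the 18 genes in 14 libraries, on an axis from 0, with exact binomial 95% intervals that cover counting error only. Dark bars are control libraries, light bars UV-B replicate 3 and red bars the 3 raised libraries, which hold 610 to 913 CPM against 64.0 to 220 CPM elsewhere.

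Of the 18 genes, 14 matched a RefSeq record and 6 had a gene name. The named ones were rip2, a ribosome-inactivating protein gene, the bHLH genes bHLH116 and bHLH108, and the TIFY genes TIFY4, TIFY15 and TIFY25. The others have no name in the annotation used, so no role is given for them. All 18 passed the filter on low counts, among 23899 genes tested.

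**Figure D2:**
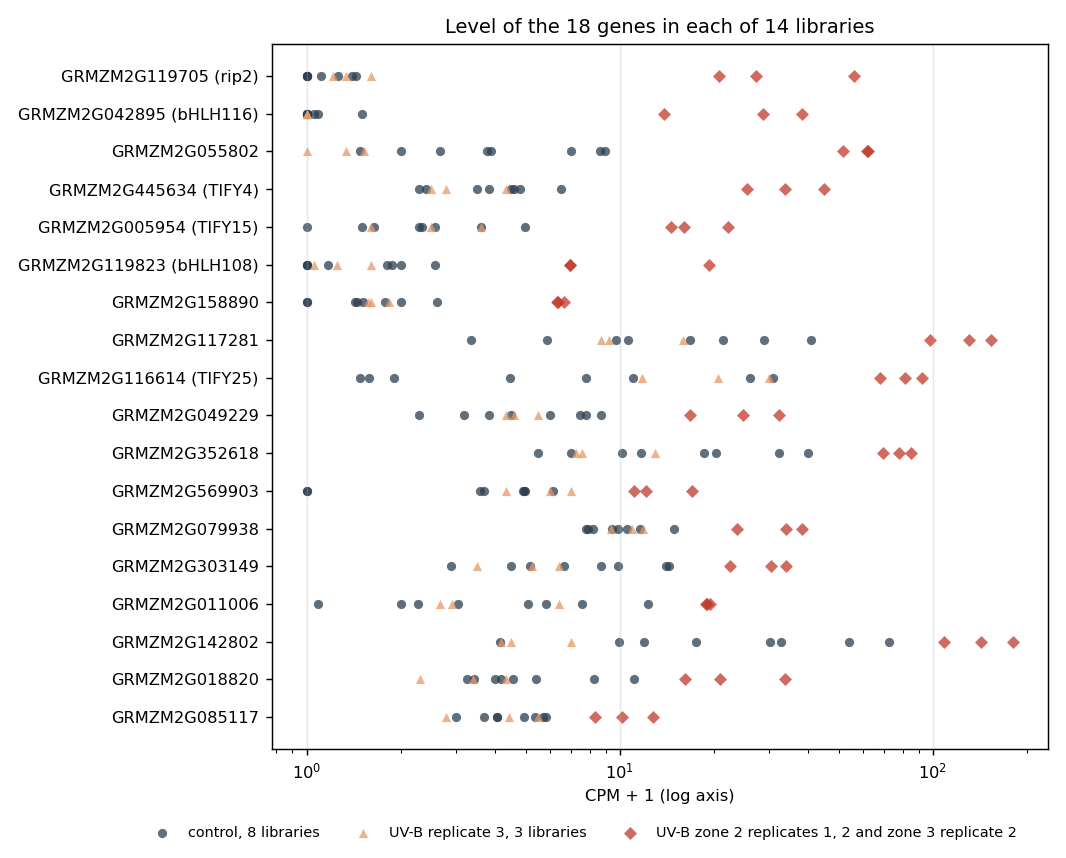
CPM + 1 of each of the 18 genes (rows, in the order of the rule's ranking) in each of 14 libraries, on a log axis. Diamonds are the 3 raised libraries, circles the 8 control libraries and triangles the 3 libraries of UV-B replicate 3. The gap between diamonds and other points is widest for rip2 and bHLH116 and narrow for the genes at the bottom, as the ranking sets it.

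The gene rip2 (GRMZM2G119705, chromosome 7, 162849639 to 162851038, 1 exon, in the coordinates of the deposited table, which names no build) ranked first. It had 187, 365 and 257 reads in replicates 1 and 2 of UV-B zone 2 and in replicate 2 of UV-B zone 3, which is 19.7, 26.3 and 55.1 CPM. The 11 other libraries held 17 reads together and at most 0.598 CPM. Maize has another tested gene of this kind, RIP1 (GRMZM2G052546), which was not among the 18. RIP1 had 22.3, 27.8 and 27.0 CPM in the raised libraries, 78.9, 78.3 and 97.4 CPM in UV-B replicate 3 (zones 1 to 3), and 24.9 to 67.7 CPM in the controls. All 3 libraries of UV-B replicate 3 lay above the raised libraries for RIP1, the opposite order to rip2.

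The gene bHLH116 (GRMZM2G042895, chromosome 10, 76600001 to 76602213, 4 exons) was next. It had 262, 178 and 174 reads in the raised libraries, or 27.7, 12.8 and 37.3 CPM. Controls held 3 reads in all, 1 each in control zone 1 replicates 1 and 2 and control zone 3 replicate 1, and UV-B replicate 3 held 0. The other bHLH member, bHLH108 (GRMZM2G119823, chromosome 10, 105635763 to 105638288), had 5.91 CPM in UV-B zone 2 replicate 1, 5.90 in UV-B zone 2 replicate 2 and 18.2 in UV-B zone 3 replicate 2. Controls reached 1.56 CPM and UV-B replicate 3 reached 0.598. The genes bHLH116 and bHLH108 lie 29035.8 kb apart and are not neighbours.

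Among TIFY genes, TIFY4 (GRMZM2G445634, chromosome 1, 16791539 to 16792462) had 32.6, 24.5 and 43.7 CPM in the raised libraries, in the same order. It had 1.29 to 5.47 CPM in the controls and 1.50 to 3.33 in UV-B replicate 3. TIFY15 (GRMZM2G005954, chromosome 2, 184649166 to 184651569) had 13.5, 14.98 and 21.2 CPM against at most 3.98 elsewhere. For both, the level was highest in UV-B zone 3 replicate 2.

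TIFY25 (GRMZM2G116614, chromosome 7, 121257088 to 121259224) behaved less evenly on the low side. It had 66.5, 80.6 and 91.5 CPM in the raised libraries. Control replicate 1 had 25.0 CPM in zone 1 and 29.9 in zone 3, and UV-B replicate 3 had 28.9, 19.6 and 10.8 in zones 1 to 3. Control replicates 2 and 3 had 9.99 and 3.47 CPM in zone 1, 6.79 and 0.893 in zone 2, and 0.584 and 0.482 in zone 3. Within control zone 3 the level thus spanned 0.482 to 29.9 CPM.

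The 12 unnamed genes ranged from low to moderate counts. GRMZM2G055802 (chromosome 1, 294073997 to 294075815) had 60.7, 50.6 and 60.9 CPM in the raised libraries, 0.482 to 7.98 in the controls and at most 0.520 in UV-B replicate 3. GRMZM2G117281 (chromosome 7, 2744691 to 2746114) had 129, 96.6 and 152 CPM, with 2.33 to 39.7 in the controls and 7.70 to 14.9 in UV-B replicate 3. GRMZM2G142802 (chromosome 10, 147860136 to 147861369) had 141, 108 and 179 CPM, with 3.14 to 71.5 in the controls. In this last gene UV-B replicate 3 had 3.49, 3.16 and 5.98 CPM in zones 1 to 3, so its controls covered a wider range than UV-B replicate 3 did.

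Of the remaining 9, GRMZM2G352618 had 83.9, 68.1 and 77.2 CPM and GRMZM2G303149 had 32.8, 21.5 and 29.4 CPM in the raised libraries. GRMZM2G049229 had 23.7, 15.7 and 31.3 CPM. GRMZM2G018820 had 15.2, 19.9 and 32.8 CPM, GRMZM2G011006 had 17.8 to 18.4, and GRMZM2G569903 had 15.9, 11.1 and 10.1. Lower levels were seen in a pair of genes, where GRMZM2G158890 stood at 5.28, 5.62 and 5.36 CPM and GRMZM2G085117 at 9.19, 7.34 and 11.8. GRMZM2G079938 had 32.9, 22.6 and 37.3 CPM, but its RefSeq records are shared with the adjacent gene GRMZM2G079746, so its identity is uncertain. GRMZM2G079746 itself had 38.4 to 121 CPM over the 14 libraries.

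Among themselves the 18 genes were not raised alike. UV-B zone 3 replicate 2 was the highest of the 3 libraries for 14 genes, UV-B zone 2 replicate 1 for 3 and UV-B zone 2 replicate 2 for 1. The rule used these levels, and the matching shares over all genes tested are not given here, so the counts are a description. The highest raised level was 1.03 times the lowest for GRMZM2G011006 and 1.06 times for GRMZM2G158890. It was 2.79 times the lowest for rip2, 2.91 times for bHLH116 and 3.09 times for bHLH108.

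**Figure D3:**
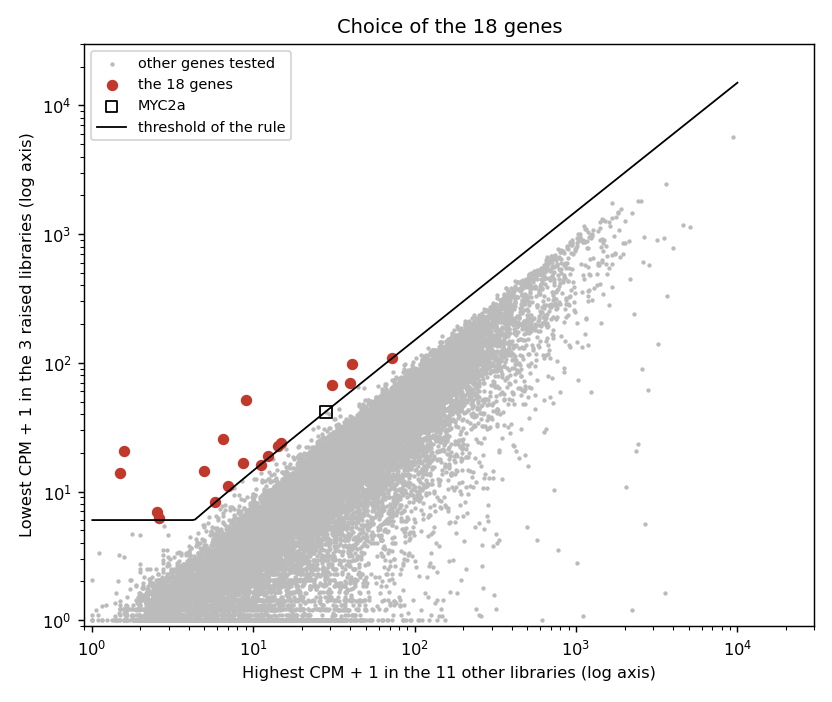
Lowest CPM + 1 in the 3 raised libraries against highest CPM + 1 in the 11 others, both on log axes, for the genes tested, without the gene left out by the rule. Red points are the 18 genes, the line is the threshold of the rule, and the open square is MYC2a, which lies just under it at a ratio of 1.47.

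At the threshold, GRMZM2G018820 (ratio 1.50) and GRMZM2G142802 (1.51) were just inside. Just outside were GRMZM2G012891, with a ratio of 1.49, and MYC2a (GRMZM2G001930), a bHLH factor of the kind that JAZ proteins repress, with 1.47. MYC2a had 63.9, 40.3 and 44.6 CPM in the raised libraries and at most 27.4 in the others. Just under the level of 5 CPM were GRMZM2G011110 with a lowest raised level of 4.39 CPM, LOB15 (GRMZM2G060544) with 3.60 and CKX4 (GRMZM5G817173), a cytokinin oxidase gene, also with 3.60.

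Over all tested genes, 145 of 23899 (0.607%) had all 3 raised libraries above all 11 others, the 18 among them. In a list of 17 tested TIFY genes, 3 were members and 2 of the other 14 showed that order. TIFY28 (GRMZM2G036351) had 2.22, 3.74 and 9.22 CPM against at most 0.482 elsewhere. TIFY9 (GRMZM2G145412) had 0.106, 1.51 and 2.57 CPM and no reads elsewhere. The most abundant TIFY genes overlapped between the sides: TIFY23 (GRMZM2G080509) had 97.1 to 117 CPM in the raised libraries and 82.5 to 119 elsewhere, and TIFY12 (GRMZM2G086920) had 89.5 to 96.7 and 72.5 to 123. The median log2 ratio of the raised to the other side was 0.49 over these other 14 TIFY genes, 0.03 over 21 genes of jasmonate synthesis and -0.11 over all genes tested. Lists with no member had such medians too, at 0.96 for greening genes, 0.66 for benzoxazinoid genes, 0.50 for terpene synthases and 0.39 for heat shock genes, and the raised side holds no zone 1 library.

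For jasmonate synthesis, 0 of 21 tested genes had all raised libraries above all others. The most abundant of them, the lipoxygenase gene lox5 (GRMZM2G102760), had 177, 177 and 255 CPM in the raised libraries and 116 to 318 elsewhere. Another lipoxygenase gene, lox10 (GRMZM2G015419), had 201, 261 and 341 CPM, and 90.7 to 206 elsewhere. A further one, lox1 (GRMZM2G156861, chosen after its values were seen), had 59.5, 132 and 403 CPM, but control zone 3 replicate 1 had 128 CPM, and the other 10 libraries had at most 14.4. A list of bHLH genes filled by that symbol, which leaves out MYC2a, held 37 other tested genes, and 1 of them had the order. It was bHLH76 (GRMZM2G112629), with 19.6, 15.05 and 11.6 CPM against at most 9.46. No WRKY gene of 14 and no ethylene-responsive factor of 23 had it. In other lists the order held for 1 of 40 MYB genes (MYBR21), 1 of 22 glutathione transferase genes (gst18, at 1.07 to 1.87 CPM with no reads elsewhere) and 1 of 2 terpene synthase genes (tps1, at 0.633 to 2.57 CPM). The reverse order, with all raised libraries below all others, held for 2 of 40 MYB genes, 1 of 37 bHLH genes and 1 of 16 calcium-binding genes. It held for 0 of the 14 other TIFY genes. The share of the reverse order over all genes tested is not given here, so these reverse counts cannot be weighed against it.

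Clock genes and heat shock genes, picked to reflect the sampling hour and heat, differed between the same libraries. Neither the hour nor the temperature of sampling is among the sample values used here. The summed CPM of 3 clock genes was 47.2 to 74.5 in the raised libraries, 65.0 to 173 in control replicates 2 and 3, and 401 to 810 in control replicate 1 and UV-B replicate 3. The summed CPM of 9 heat shock genes was 208 to 335 in the raised libraries, 278 to 479 in control replicates 2 and 3, and 31.6 to 52.0 in control replicate 1 and UV-B replicate 3. The raised libraries thus stood nearer to control replicates 2 and 3 than to UV-B replicate 3 in both lists. In zone 2, 13 greening genes summed to 2695 and 1746 CPM in the raised libraries, 780 CPM in UV-B replicate 3, and 1590 and 1348 CPM in control replicates 2 and 3. The part of these differences in the levels of the 18 genes was not tested.

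Outside the raised libraries the 18 genes did not all vary together. Control replicate 2 had the highest level of the control libraries in both zone 1 and zone 3 for 12 of the 18, against 14.1% of all genes tested. Control replicate 1 had it for 5 (14.5% of all genes) and control replicate 3 for 0 (14.1%). The low side entered the rule only through its highest level, so these counts are a description.

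The genes highest in control replicate 2 included GRMZM2G142802, with 31.8, 53.0 and 71.5 CPM in zones 1, 2 and 3 of that replicate. Control replicate 3 had 10.97, 16.4 and 29.2 CPM, and control replicate 1 had 3.14 and 8.97 in zones 1 and 3. GRMZM2G352618 followed the same order, with 17.5, 31.3 and 38.9 CPM in control replicate 2, 9.13, 10.7 and 19.3 in control replicate 3, and 4.49 and 5.98 in control replicate 1. GRMZM2G303149 had 7.70, 13.4 and 13.1 CPM in control replicate 2 and 1.88 and 3.49 in control replicate 1. TIFY25 and TIFY15 had the opposite order in zone 3, with 29.9 and 3.98 CPM in control replicate 1 and 0.584 and 1.56 in control replicate 2. For TIFY15 each of these 2 values rests on 8 reads, in libraries of 2007679 and 5135041 reads. The order there is thus open to counting error.

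**Figure D4:**
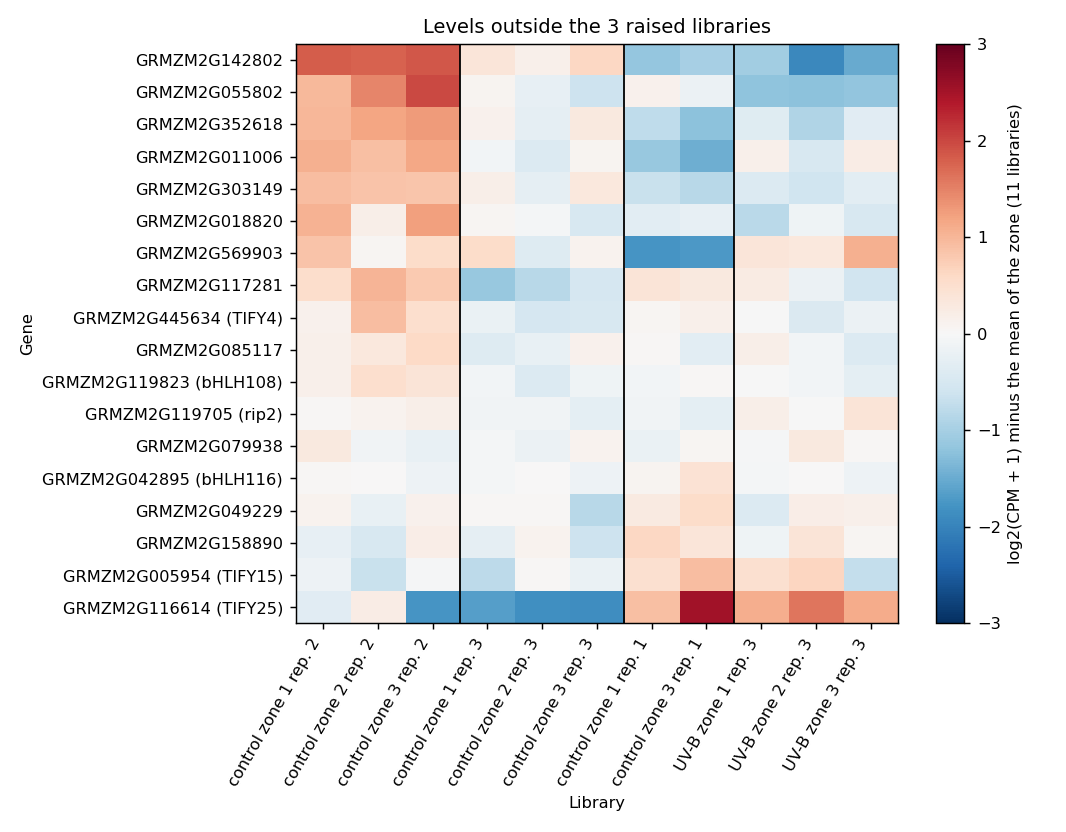
Levels of the 18 genes (rows) in the 11 libraries outside the raised ones (columns), as log2(CPM + 1) minus the mean of the zone. Red is above and blue below the zone's mean, and lines separate control replicates 2, 3 and 1 and UV-B replicate 3. GRMZM2G142802 is high in the 3 libraries of control replicate 2, and TIFY25 is high in control replicate 1 and UV-B replicate 3.

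Across these 11 libraries, the closest pair was GRMZM2G352618 and GRMZM2G303149, with a Pearson correlation of log2(CPM + 1) of 0.98, or 0.99 after subtracting the mean of each zone. GRMZM2G142802 correlated with them at 0.93 and 0.92. The lowest correlation was -0.75, between bHLH116 and GRMZM2G569903, the first of which held 3 reads in these libraries. The median over the 153 pairs was 0.10. The 11 libraries share replicates and zones, so the points are not independent.

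UV-B replicate 3 was compared with the controls of its zone by counting genes. In zone 2 it was above the highest control for 6 of the 18 (41.7% of all genes tested) and below the lowest for 6 (18.3%). In zone 3 it was above for 2 (36.9%) and below for 7 (25.8%), and in zone 1 above for 3 (34%) and below for 3 (14.1%). With 1 UV-B replicate 3 library and 2 or 3 controls per zone there is no test. GRMZM2G055802 was below the lowest control in each zone, with 0.520, 0.333 and 0 CPM against control minima of 2.76, 1.66 and 0.482 CPM. The last comparison rests on 0 reads in UV-B and 3 in the control library.

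The position along the leaf was not used by the rule. In control leaves, zone 3 against zone 1 gave 0 of 18 genes called in either direction by edgeR's quasi-likelihood test at an adjusted p under 0.05, while 25.6% of all genes tested were higher and 25.7% lower. At an unadjusted p under 0.05, 1 of the 18 passed, where the share over all genes is at least as large as at the adjusted p. DESeq2 called 1, and its share over all genes is not given here. Zone 3 was above zone 1 in all 3 replicates for 7 of the 18 (35% of all genes tested) and below in all 3 for 3 (43.4%). The median log2 change was 0.50 over the 18 and -0.02 over all genes tested. It was 0.19, -0.09 and 0.85 when replicate 1, 2 or 3 of control zone 3 was left out, and 0.21 without control zone 1 replicate 3, so its sign rested on 1 library. The fit shares 1 estimate of the spread between all groups, including the UV-B groups that the rule sets apart, and the median SE was 1.11 for the 18 genes against 0.36 for all. A further fit took the replicate number within each treatment as a block, since same-numbered control libraries deviated together. In it 6 of the 18 were higher and 1 lower in zone 3, against 30.6% and 32% of all genes tested. The median SE was 0.39 for the 18 and 0.25 for all. The block also takes up the gap between UV-B replicate 3 and the raised libraries. That gap chose the genes, so the choice itself can lower this SE.

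In the blocked test GRMZM2G117281 had the smallest adjusted p of the 18. It had 8.70, 9.60 and 2.33 CPM in control zone 1 and 27.9, 39.7 and 15.8 in control zone 3 (replicates 1, 2 and 3), and each replicate was higher in zone 3. Its log2 change was 2.23 ± 0.21 (SE, edgeR adjusted p = 7.7e-07), and without the block 2.11 ± 1.02 (adjusted p = 0.101). GRMZM2G142802, with the values given above, changed by 1.42 ± 0.16 with the block (adjusted p = 5.0e-06) and 1.40 ± 1.27 without (adjusted p = 0.373). The gene bHLH108 had 0, 0.167 and 0 CPM in zone 1 and 0.996, 1.56 and 0.804 in zone 3, at most 8 reads in a library.

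The other 3 genes that were higher in the blocked test were GRMZM2G011006 (log2 change 1.86 ± 0.39), GRMZM2G352618 (1.10 ± 0.22) and GRMZM2G303149 (1.01 ± 0.26). GRMZM2G049229 was lower, with 7.71, 6.81 and 6.44 CPM in zone 1 and 4.98, 3.51 and 1.29 in zone 3 (log2 change -1.17 ± 0.36, edgeR adjusted p = 0.013 with the block and 0.275 without). Fits of the control libraries alone, chosen after the data were seen, tested 14 of the 18. With the block, 5 were higher and 1 lower, against 32.6% and 35.3% of all genes tested in it. Without the block, 1 was higher (28.3% of all genes) and 0 lower (30%). In the fits with the block, the count of higher genes thus lay near the share over all genes and that of lower genes under it. In the fits without it, both lay under that share. TIFY4, TIFY15 and TIFY25 passed in none of these fits, and their log2 changes without the block were -0.41 ± 1.14, 0.57 ± 1.15 and -0.58 ± 1.32.

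**Figure D5:**
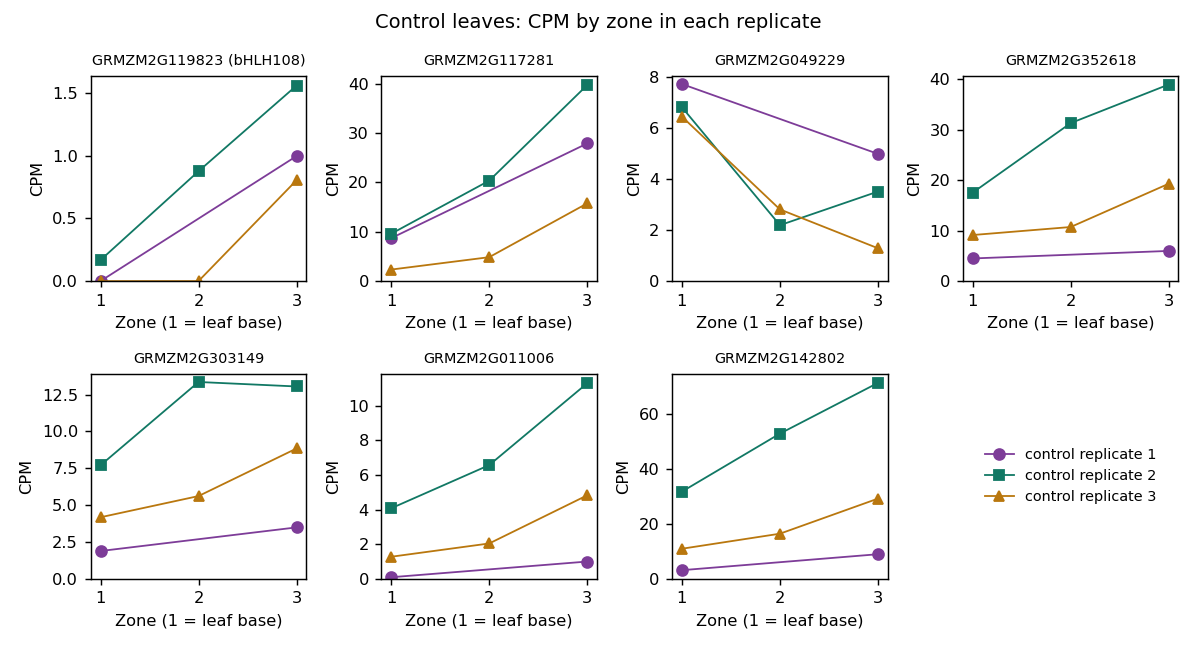
CPM in control leaves by zone, in each replicate, for the 7 genes called between zones 1 and 3 with the replicate block, each panel on its own axis from 0. Lines join the libraries of 1 replicate, and replicate 1 had no zone 2 library. In 6 panels each replicate is higher in zone 3 than in zone 1, and in the panel of GRMZM2G049229 each is lower.

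Under UV-B, zone 3 against zone 2 gave 0 of 18 genes called in either direction by edgeR, against 3.35% of all genes higher and 3.5% lower, and 0 at an unadjusted p under 0.05. DESeq2 and limma-voom called 0 as well. The rule put UV-B replicate 3 on the low side and the other usable libraries of both groups on the raised side. That widens the spread within the groups, and the median SE was 1.09 for the 18 genes against 0.40 for all. The count of 0 called therefore says little about position under UV-B. The median log2 change was 0.13 over the 18 and -0.08 over all. It rested on single libraries: it was -2.61 without UV-B zone 3 replicate 2 and 0.93 without replicate 3 of that zone. It was 0.60, 0.25 and -0.34 when replicate 1, 2 or 3 of UV-B zone 2 was left out. Within UV-B replicate 2 alone, zone 3 was above zone 2 in 16 of the 18 (42.9% of all genes tested). Within UV-B replicate 3 it was so in 10 (43%). Both raised libraries of replicate 2 were used by the rule, and 1 pair of libraries is no test.

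For UV-B against control within a zone, the contrast that the rule used, edgeR called 0 of the 18 in zone 2 (0% of all genes higher) and 0 in zone 3 (0% of all genes higher and 0.00418% lower). The fitted log2 changes were positive for all 18 in both zones, the sign that the choice favours. In zone 2 their adjusted p was 0.924 or more. At an unadjusted p under 0.05 edgeR passed 8 of the 18 there, against 939 of 23899 genes tested. In zone 3 it passed 6, against 864. The rule chose the 18 by libraries of these groups, so the counts are no evidence. Over all genes, edgeR called 0 in zone 2 and 1 in zone 3, DESeq2 2 and 4, and limma-voom 1 and 0. DESeq2 and limma-voom called 0 of the 18 in both zones. UV-B replicate 3, with its summed level of 73.4 to 80.7 CPM, is among the libraries of both UV-B groups.

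The 18 genes were also compared with all tested genes in their structure, which the rule did not use. For 8 of the 18 every annotated transcript had a single exon, against 14.6% of all genes tested. These were rip2, GRMZM2G158890, GRMZM2G049229, GRMZM2G352618, GRMZM2G303149, GRMZM2G011006, GRMZM2G142802 and GRMZM2G085117. The longest transcript had a median of 1434 bases over the 18 (871 to 2904) and 1736 bases over all tested genes. The genes lay on 8 chromosomes, and the closest pair, GRMZM2G158890 and GRMZM2G303149, was 749 kb apart on chromosome 1.

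Of the 18 genes, 12 had 1 annotated transcript and 6 had more. In the deposited table unique reads are those of 1 transcript only, so genes with several overlapping transcripts have few. GRMZM2G018820 had 0 unique reads of 964, TIFY15 1.85% and GRMZM2G117281 5.97%. Shares of transcripts within these genes depend on how the authors divided shared reads. By unique reads alone in zones 2 and 3, the first annotated transcript of GRMZM2G117281 held 151 of 218 unique reads in the raised libraries (69.3%, exact 95% interval 62.7% to 75.3%). It held 10 of 18 in the controls (55.6%, 30.8% to 78.5%) and 0 of 4 in UV-B replicate 3 (0% to 60.2%). These intervals pool the reads of several libraries and leave out the spread between libraries, so they do not compare the sides. In UV-B zone 2 replicates 1 and 2 and UV-B zone 3 replicate 2 this transcript held 34 of 51, 105 of 140 and 12 of 27 unique reads. The last share, 44.4%, was below the pooled share of the controls, and UV-B replicate 3 rests on 4 reads. The second annotated transcript of GRMZM2G079938 held 12 of 18 unique reads in UV-B zone 2 replicate 1, but 9 of 39 in replicate 2 of that zone and 2 of 9 in UV-B zone 3 replicate 2, against 4 of 21 in the controls of both zones. Its share thus differed between the raised libraries themselves.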

How the data were processed

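RNA of 15 libraries in 6 groups was sequenced after stranded library preparation, per the labels' protocols. The authors deposited a table of transcripts with their read counts, total and unique, and their lengths, per the file headers. How reads were aligned and shared reads divided, and on which build, is not given in the sources used here. A further 21 value columns of 3 libraries that match no sample were not used. Total counts of 62892 transcripts were summed to 39145 genes. Names came from RefSeq records of Zm-B73-REFERENCE-NAM-5.0, matched for 18842 genes. No sequence was used.

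The members and gene lists were chosen with earlier results of these data known. Genes were named if they ranked among the first 15, had a gene name, or were among the 4 smallest adjusted p per direction, and from lists as the up to 2 most abundant genes. Others are said to be chosen later, or stand at the threshold or in a count of 5 or fewer.

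Tests used edgeR 4.0.16 in R 4.3.3 on 14 libraries (without UV-B zone 3 replicate 1), with filterByExpr, TMM scaling, the two-sided quasi-likelihood F test over 6 groups and Benjamini-Hochberg adjustment over 23899 genes, threshold 0.05. CPM use library totals without TMM. Binomial intervals are exact (Clopper-Pearson, 95%), floors are 3 reads, and both cover counting error only. The labels name biological replicates, and p-values measure the spread between these samples. Same-numbered libraries of control zones 1 and 3 had deviations from their group means that correlated at 0.31, 0.18 and 0.28 over genes, so the blocked fit is given beside that result. The scripts were tested on simulated data. Alternatives were DESeq2 1.42.0 (size factors alone, or its own test), limma-voom (limma 3.58.1), other filters, a stricter threshold, the compared groups alone, all 15 libraries, unique reads, a replicate block and leaving out each library. Fits of the control libraries alone were chosen after seeing the data.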

Additional observations from a re-analysis of the deposited data

How the results depend on the processing

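In control zone 3 against zone 1, the count of higher genes among the 18 went from 0 to 1 with DESeq2, with all 15 libraries, with the compared groups alone and with the control libraries alone. It went to 6 with the replicate block and to 5 with the control libraries alone and the replicate block. The count of lower genes went from 0 to 1 with the replicate block, with the control libraries alone and the replicate block, and with unique reads. The shares over all genes with DESeq2, all 15 libraries, the compared groups alone, unique reads or a library left out are not given here. Leaving out each library gave 0 to 2 higher (2 when replicate 3 of UV-B zone 2 was left out, 1 when either library of UV-B zone 3 was) and 0 to 1 lower (1 without control zone 3 replicate 1), with a median log2 change of -0.09 to 0.85. In UV-B zone 3 against zone 2, the replicate block gave 3 higher in place of 0 (bHLH116, GRMZM2G117281 and GRMZM2G142802, against 10.4% of all genes tested), but the 2 pairs of numbered libraries there do not settle whether the numbers pair the samples. Leaving out each library gave 0 higher and 0 lower, with a median log2 change of -2.61 to 0.93, the lowest without UV-B zone 3 replicate 2, the raised library of that zone. UV-B against control gave 0 called in zones 2 and 3 under every alternative run. Among these the replicate block joined control and UV-B libraries of the same number, although these numbers do not pair the treatments. The rule passed 10 genes at a ratio of 2 in place of 1.5, 15 at 10 CPM in place of 5, 21 with TMM scaling (16 of the 18) and 19 with unique reads (14 of the 18). Leaving out each library gave 18 to 31 genes, with 31 when replicate 2 of UV-B zone 2 was left out and 27 when replicate 1 was. By unique reads the summed level of the 18 was 1009 to 1417 CPM in the raised libraries and 108 to 345 CPM in the others. The cause of these changes was not tested. Depth limits rip2, bHLH116, bHLH108 and GRMZM2G158890, with at most 4, 1, 8 and 18 reads in any library outside the raised ones.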

Other observations

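The mirror of the rule, with levels low in the 3 raised libraries and higher in all 11 others by the same ratio and level, held for 2 genes. GRMZM2G302045 had 11.5, 8.64 and 25.3 CPM in UV-B zone 2 replicates 1 and 2 and UV-B zone 3 replicate 2. It had 40.3 to 106 CPM in the controls and 104, 60.6 and 50.8 CPM in zones 1 to 3 of UV-B replicate 3. GRMZM2G058681 had 7.07, 4.68 and 1.93 CPM in the raised libraries and 17.3 to 28.3 CPM in the other 11. Both were chosen by these values, and neither has a name in the annotation used.

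The gene GRMZM2G489579 was too low for the rule, with 2.75, 3.24 and 2.36 CPM in the raised libraries. In the other 11 it had reads in control zone 1 replicate 2 alone, at 0.112 CPM. GRMZM2G126936 had 5.38, 3.67 and 8.15 CPM in the raised libraries and at most 0.779 CPM elsewhere. Both stood under the level of the rule and were picked by their values.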
